A study of Mus musculus with 147 samples.

Results

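The 7 globin genes of the table of unique molecular identifier (UMI) counts, *Hbb-y*, *Hbb-bh1*, *Hba-x*, *Hba-a1*, *Hba-a2*, *Hbb-bt* and *Hbb-bs*, were followed across mouse male germ cell development, 7 of the 31053 genes in the table. They were chosen by name and with their levels over libraries, time-points and replicates known, so these levels are given as a description with no test. Single cells had been sequenced by a modified STRT-seq, a method that counts 3′ ends of transcripts, in libraries of up to 96 barcoded cells each. The 13032 cells came from 28 time-points, embryonic day (E) 6.5 to the adult.

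A pool here is all cells of one time-point, genotype and replicate, and there were 61 wild-type and 9 *Helq* null pools with 15169000 to 212320000 UMIs. All animals descended from C57BL/6 females and males with the BVSC reporters, a Blimp1-mVenus and a Stella-ECFP transgene that mark the early germline, or, for the null, from a single line of BVSC embryonic stem cells cut by CRISPR/Cas9 in exon 1 of *Helq*. At E6.5 and E7.5 cells were picked or sorted without reporter selection, at E8.5 to E10.5 they were sorted from embryos as reporter-positive (BVSC), and gonads of E11.5 to E18.5 gave BVSC and reporter-negative (Negative) cells. From E14.5 the study collected cells positive for Stella-ECFP alone, because the Blimp1-mVenus signal fell. The cell names call these BVSC as well. Null pools were from E11.5 to E15.5 and E18.5. Per the study's methods, males were selected by PCR for the *Sry* gene at E10.5 and E11.5. The names of part of the E10.5 cells give no sex. Postnatal testes carried no reporter gate, their cells were picked by size and shape, and at PND14 and PND30 (PND, postnatal day) also sorted by DNA content. The deletion in *Helq* is small and lies far from the 3′ end, so 3′ counts do not check the genotype label. No treatment was given.

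Globins are the protein chains of hemoglobin, the oxygen carrier of red blood cells, which pairs α-type chains (*Hba* genes) with β-type chains (*Hbb* genes). In mice the first red cells arise in the yolk sac and are primitive erythroid cells, which express the embryonic genes *Hbb-y* (εy), *Hbb-bh1* (βh1) and *Hba-x* (ζ) beside the adult α genes. Later red cells, made in the fetal liver and then in bone marrow and spleen, are definitive cells that use the adult genes *Hba-a1* and *Hba-a2* (α) and *Hbb-bt* and *Hbb-bs* (β). Because red cells hold so much globin RNA, globin reads are a usual sign of blood, or of RNA from blood, in samples of other tissues.

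The genes lie in the 2 globin loci of the mouse genome (mm10, GENCODE M21 gene models). On the minus strand of chromosome 7 they are, from low to high coordinate, *Hbb-bt* (chr7:103812524-103813996), *Hbb-bs* (chr7:103826534-103828096), *Hbb-bh1* (chr7:103841637-103843164) and *Hbb-y* (chr7:103851749-103853216), and on the plus strand of chromosome 11 *Hba-x* (chr11:32276400-32278116), *Hba-a1* (chr11:32283511-32284465) and *Hba-a2* (chr11:32296489-32297298). The 100 bases before the RefSeq start (GRCm38.p6, the assembly of mm10) are shown for 6 of the 7 genes, because the levels of the members of one class varied together over pools. Capitals mark, on either strand, matches to the core of the TATA box (spelled out with its variant below), to the CCAAT box and to the CACCC box, which is read by the Krüppel-like factor Klf1.
Hbb-y: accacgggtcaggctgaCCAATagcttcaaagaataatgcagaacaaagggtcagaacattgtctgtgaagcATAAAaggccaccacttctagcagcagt
Hba-x: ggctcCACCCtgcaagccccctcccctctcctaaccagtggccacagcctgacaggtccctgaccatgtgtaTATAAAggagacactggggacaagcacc
Hba-a1: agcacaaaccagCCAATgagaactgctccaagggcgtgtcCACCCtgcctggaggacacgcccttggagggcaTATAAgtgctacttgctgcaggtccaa
Hba-a2: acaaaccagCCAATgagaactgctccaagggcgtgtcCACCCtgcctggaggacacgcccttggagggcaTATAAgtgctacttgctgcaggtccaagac
Hbb-bt: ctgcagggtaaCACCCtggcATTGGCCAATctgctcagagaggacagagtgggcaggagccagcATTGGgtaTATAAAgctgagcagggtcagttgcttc
Hbb-bs: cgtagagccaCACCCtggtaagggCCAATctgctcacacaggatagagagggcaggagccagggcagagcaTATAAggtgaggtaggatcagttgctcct

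The TATA box core, with the letters TATAA, was in 5 of these 6 windows and in 10.7% of the 27025 RefSeq promoters of the same length. Its variant ATAAA, which overlaps the core in 2 windows, was in 3 of 6 and in 18.1%. CCAAT was in 5 of 6 (19.6% of all), CACCC in 5 of 6 (26.8%) and GATAA, the core of a GATA site, in 0 of 6 (8.65%). The windows of *Hba-a1* and *Hba-a2* share a run of 97 bases and their transcripts were 99.8% identical, so the split of UMIs between these genes is uncertain. *Hbb-bt* and *Hbb-bs* transcripts were 92.7% identical.

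Globin UMIs were present at all ages. Of the 13032 cells, 8137 (62.4%) held at least 1 globin UMI, yet the median cell had only 7.52 CPM (UMIs of the gene divided by the summed UMIs and scaled as counts per 1000000) of the 7 genes together. Over the 70 pools the 7 genes summed to 2.35 CPM at the lowest (PND35 R2), 71.5 CPM at the median and 1951 CPM at the highest (E7.5 R3). The adult α genes led, *Hba-a1* with a median of 28.4 CPM over pools and a highest of 393 CPM, and *Hba-a2* with 18.55 and 361 CPM. Of the adult β genes, *Hbb-bs* had a median of 12.4 CPM and a highest of 182 CPM, and *Hbb-bt* 4.82 and 136.2 CPM. These 4 genes had UMIs in every pool. Medians of the embryonic genes were far lower, 1.38 CPM for *Hba-x*, 0.400 CPM for *Hbb-y* and 0.0895 CPM for *Hbb-bh1*. Their highest levels, 377, 379 and 315 CPM, were of the size of the adult α genes and came from the same pool, E7.5 R3. *Hbb-bh1* was at 0 in 22 pools, *Hbb-y* in 9 and *Hba-x* in 7, where 3 UMIs would have been 0.0141 to 0.198 CPM. Since tags were counted at 3′ ends, gene length does not enter these CPM.

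**Figure D1:**
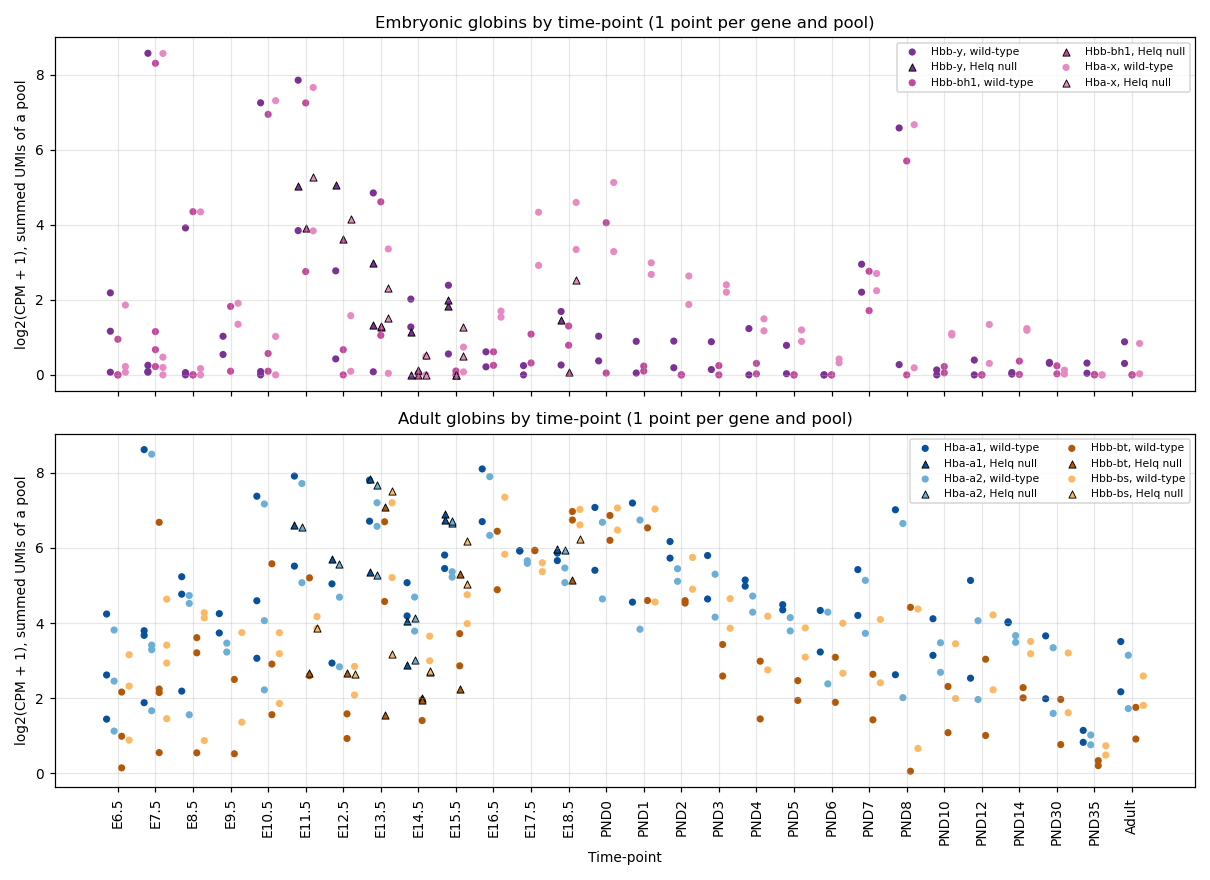
Summed level of each globin gene, as log2(CPM + 1), by time-point, with 1 point per gene and pool. Circles are wild-type and triangles *Helq* null pools. The embryonic genes (top) reach at least 315 CPM in E7.5 R3 and stand near 0 in most pools, and the adult genes (bottom) are above 0 in every pool.

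Replicates of one time-point differed widely. In the 4 pools of E7.5 the 7 genes summed to 34.7, 7.39, 1951 and 34.2 CPM, and embryonic genes gave 5.21%, 4.90%, 54.9% and 1.93% of the globin UMIs. Only R3 stood high, by both measures. At E10.5 the 3 pools had 57.8, 17.1 and 794 CPM, with embryonic shares of 0.121%, 9.25% and 54.2%. Again R3 was high and R1 and R2 low. At E11.5 the wild-type pools had 1085 and 128.4 CPM with shares of 53.6% and 25.2%, and the null pool 293 CPM with 28.6%. Outside the early embryo, PND8 R1 had 515 CPM and a share of 47.8%, against 9.14 CPM and 3.81% in PND8 R2. Primitive erythroid cells are a population of the embryo, and the PND8 pool is from the testis after birth. Counting error alone was small beside these gaps: the exact 95% interval was 54.5% to 55.3% for E7.5 R3 and 47.2% to 48.5% for PND8 R1, and it covers counting error only. Over all 70 pools the embryonic share was 0% to 54.9% with a median of 3.79%. It was at least 20% in 11 pools and at least 40% in 5, those named and E8.5 R2 (41.9%).

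Within a pool, the globins followed the library. In E7.5 R3, the 48 cells of library 2 had a median of 3860 CPM (10th to 90th percentile 2713 to 6795 CPM) with an embryonic share of 55.04%, and the cells of library 1 a median of 2.09 CPM with a share of 0.725%. In E10.5 R3, the 24 cells of library 1 had a median of 4166 CPM (3399 to 8112 CPM) and a share of 55.1%, and those of library 2 a median of 0 CPM and a share of 2.88%. The same split was seen in E11.5 wild-type R1, with a median of 2286 CPM (1400 to 3581 CPM) in the 48 cells of library 2, and 2.80 CPM in library 1. Every cell of the 3 rich libraries held globin UMIs, and even their 10th percentiles lay far above the median cell of the partner library. Library 2 of E11.5 wild-type R1 held 16 Negative cells and 32 cells labelled BV, and library 1 held 80 BVSC and 16 Negative cells. The Negative cells of this one pool summed to 94.1 CPM in library 1 and 5413 CPM in library 2. In E13.5 wild-type R1, where both libraries held both gates, the median BVSC cell had 5.49 CPM in library 1 and 494 CPM in library 2, and the median Negative cell 6.29 and 383 CPM. With pool and gate held constant, the level thus still differed between libraries, and within library 2 the median BVSC cell was the higher one. Gonads of E13.5 were also cut into parts, and the part was not held constant here. Whether gonad part had a share in this difference was not tested.

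These 3 libraries, with 120 cells (0.921% of all), held 70.5% of all *Hbb-y* UMIs, 74.5% of *Hbb-bh1* and 61.8% of *Hba-x*, but 13.95% of the adult globin UMIs. Adding the pair of PND8 R1 libraries (312 cells, 2.39% of all) brought this to 79.2% of embryonic globin UMIs. Without its rich library, each pool lost its high embryonic share, which was then 0.725% in E7.5 R3, 2.88% in E10.5 R3 and 5.45% in E11.5 wild-type R1.

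In 12 libraries the 10th percentile of cells was over 100 CPM, in 70.1% of the libraries it was 0, and 13 had globin UMIs in every cell. The 12 libraries (792 cells, 6.08% of all) held 79.5% of embryonic and 46.97% of adult globin UMIs. Beside those of E7.5, E10.5, E11.5 and PND8 R1, they were of gonads or testes with mainly adult globins. One of them, the Negative library of E16.5 R1, had a median of 2470 CPM (1670 to 4247 CPM) and an embryonic share of 0.0237%. Library 1 of PND0 R2 had a median of 446 CPM and a share of 11.7%. PND8 R1 had both its libraries high in embryonic globins, with medians of 645 and 149 CPM and shares of 46.1% and 52.1%, and in both libraries of PND8 R2 the median cell had 0 CPM.

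**Figure D2:**
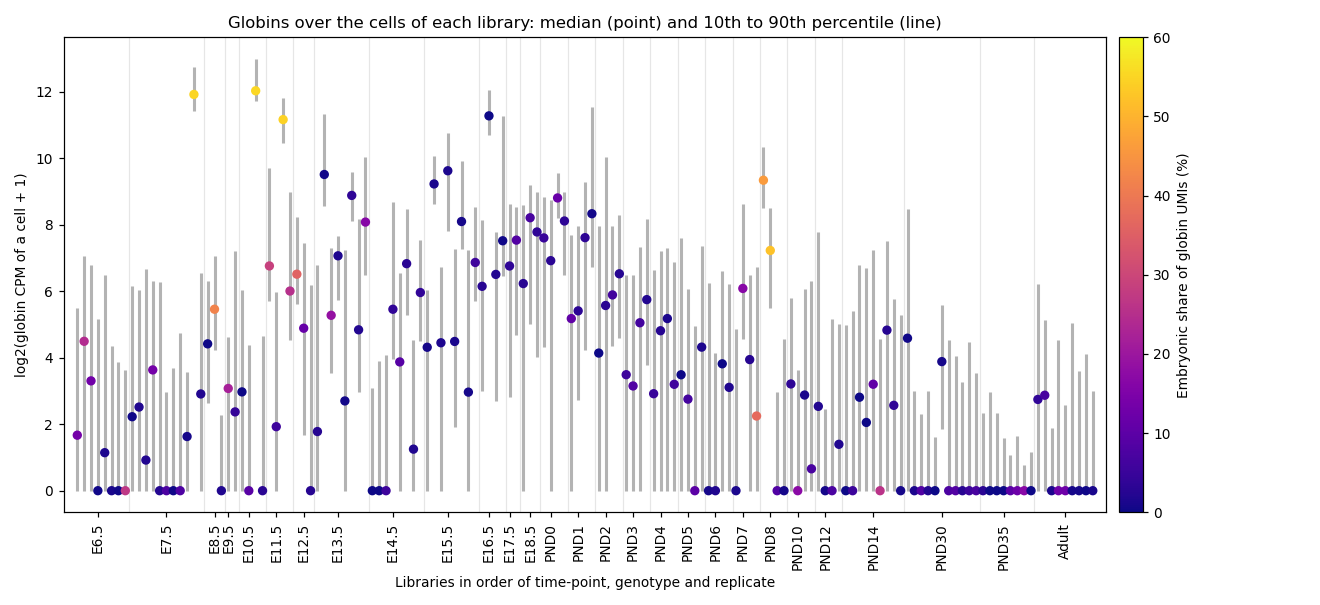
Globin level of single cells, as log2(CPM + 1) of the 7 genes together, in each library, ordered by time-point. Points are the median cell, lines run from the 10th to the 90th percentile, and colour gives the embryonic share of the globin UMIs in percent. Libraries above 40% embryonic are few, and those of E7.5, E10.5 and E11.5 stand apart from the libraries beside them.

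The adult β genes also differed between the libraries. *Hbb-bs* exceeded *Hbb-bt* in most pools, with a median *Hbb-bt* to *Hbb-bs* ratio of 0.439 (0.0606 to 5.79). *Hbb-bt* exceeded *Hbb-bs* in 9 pools. The ratio was 4.27 in E7.5 R3, 5.79 in E10.5 R3 and 2.10 in E11.5 wild-type R1, the pools with the rich embryonic libraries, and 1.03 in PND8 R1. In the others it was 1.26 and 1.48 (E17.5 R1 and R2), 1.10 (E18.5 wild-type R2), 1.03 (PND1 R1) and 1.03 (E12.5 null). *Hba-a1* exceeded *Hba-a2* in all 61 wild-type pools by a ratio of 1.03 to 2.17 (median 1.37), while in the 9 null pools the ratio was 0.891 to 1.20, with the reservation on the near-identical transcripts. Over the 70 pools, log2(CPM + 1) of *Hba-a1* and *Hba-a2* correlated at r = 0.992, of *Hbb-bt* and *Hbb-bs* at 0.926, of *Hbb-y* and *Hbb-bh1* at 0.839 and of *Hbb-y* and *Hbb-bs* at 0.0965. The pools share libraries and animals in part, so these values are descriptive.

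Few cells were rich in globins. A cell in which globins made up at least 5% of all UMIs was called globin-rich, and there were 3 such cells, 2 of which passed the filter on genes and UMIs. There were 25 cells of at least 1%, 13 of them past the filter, and 5 cells lay near the threshold, between 2.5% and 10%. The highest cell, in library 2 of E13.5 *Helq* null R1, held 13.6% globin UMIs. Summed over the 3 cells, other genes of red cells were present: of 39 measured erythroid genes, 36 were detected and all 36 were higher than in the other cells, with a median over the list of 434 against 3.55 CPM. Among them were *Car2*, a carbonic anhydrase (2243 against 45.8 CPM) and *Hemgn*, an erythroid nuclear protein (1508 against 8.80 CPM). Of the 9 genes of heme synthesis, 8 were higher. Of the 7 regulators of globin switching, 3 were higher, *Klf1*, the master activator of adult β globin (948 against 2.79 CPM), *Zbtb7a*, a repressor of embryonic globins (56 against 22 CPM), and *Myb*, a factor of blood progenitors (14 against 5.59 CPM). *Bcl11a* and *Sox6*, also repressors of embryonic globins, had 7.0 against 20.1 and 3.50 against 21.7 CPM. Of the 8 genes of yolk sac and visceral endoderm 1 was higher and 5 were at 0, and of the 6 germ cell genes 1 was higher. Of the 11 leukocyte genes 10 were higher, as were 2 of 5 platelet genes, 5 of 7 endothelial genes and 0 of 5 each for Sertoli, interstitial and Leydig cells.

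In 4 of the libraries that hold a cell of at least 1% globin, the embryonic share of that cell was set beside that of the other cells. In library 2 of E11.5 wild-type R1, the globin-rich cell had 53643 CPM of globins, 52.7% of them embryonic (51.8% to 53.6%). The other 47 cells all held globins, with 1929 CPM together, 55.1% of them embryonic (54.6% to 55.6%). In library 2 of E7.5 R3, the 1 cell of at least 1% had 17983 CPM and a share of 54.2%, and the other 47 cells 3733 CPM and 55.2%. In library 2 of E13.5 *Helq* null R1, where globins were nearly all adult, the richest cell had 135690 CPM and 0.485% and the others 787 CPM and 0.679%. A second cell of at least 1% in this library, which did not pass the filter, held 51 globin UMIs of which 86.3% were embryonic, and without it the others had 0.387%. In library 2 of E13.5 wild-type R1, *Hbb-bh1* was the one embryonic gene found, and it made 5.58% of globin UMIs in the cell of at least 1% and 2.29% in the other 95 cells. *Hbb-y* and *Hba-x* had no UMI in that library, which allows up to 0.126 CPM. Cells of at least 1% in other libraries did not all match their library. The cell in library 2 of E13.5 wild-type R2 had 28.6%, and the whole library 16.4%. The cell in library 1 of PND0 R2 had 0.452%, and the whole library 11.7%. In library 2 of E16.5 R2 the values were close, 0.488% in the cell and 0.397% in the whole library.

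**Figure D3:**
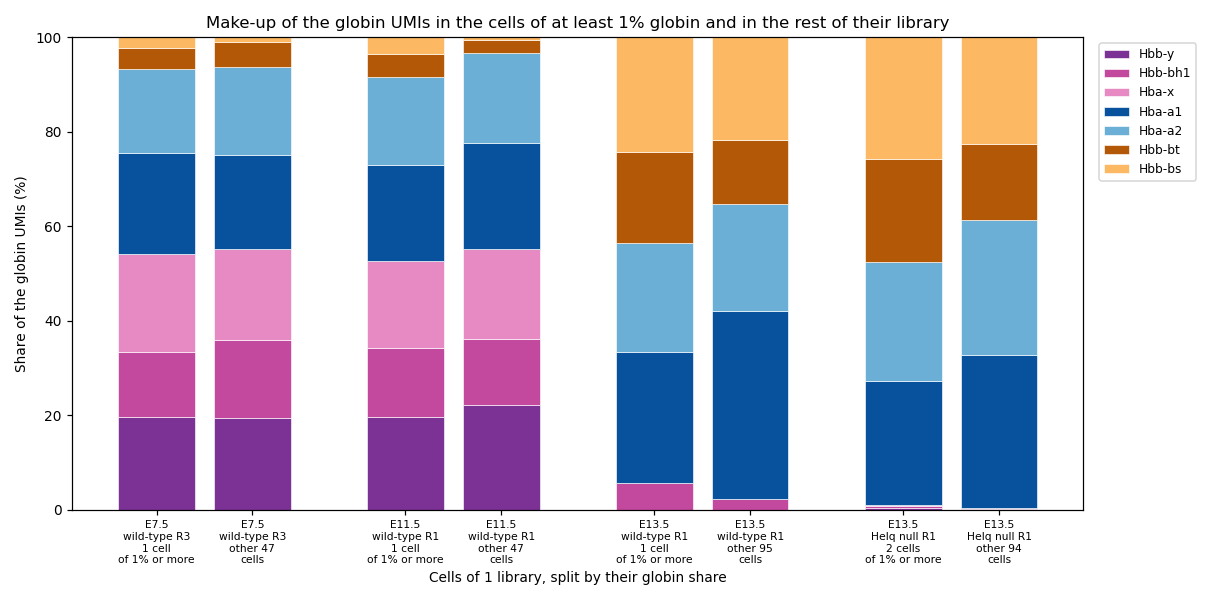
Share of each gene in the globin UMIs, in percent, for the cells of at least 1% globin and the other cells of the same library, in 4 libraries. The bars of E7.5 and E11.5 are over 50% embryonic in both sets of cells, and those of E13.5 nearly all adult in both.

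*Alas2*, *Slc4a1* and *Hemgn*, a heme enzyme, the anion exchanger band 3 and hemogen, together gave 35.7 UMIs per 1000 globin UMIs in the rich cell of E11.5 wild-type R1 and 1.93 in the other cells of the library. The same values were 35.6 and 1.46 in E13.5 *Helq* null R1, 43.7 and 3.10 in E13.5 wild-type R1, and 5.94 and 1.72 in E7.5 R3. The rest of each library was thus poorer in these 3 genes relative to globins, and 2 of the 3 were chosen after their values were seen. The whole erythroid list went the other way in all 4 libraries, with 379 UMIs per 1000 globin UMIs in the rich cell and 511 in the others in E11.5 wild-type R1, 296 and 970 in E13.5 *Helq* null R1, 601 and 1411 in E13.5 wild-type R1, and 157 and 410 in E7.5 R3. The third globin-rich cell, in library 1 of E13.5 wild-type R2, did not pass the filter. It held 1 UMI of the erythroid list and 0 of *Alas2* and *Slc4a1*. In the 4 libraries above, the richest cells held 23.6%, 37.1%, 43.8% and 12.51% of the globin UMIs. Whether free RNA or exchange of barcodes within a library had a part in the globin UMIs of the other cells was not tested.

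A background level was read from cells that should not express globins. At PND30, of the 288 cells sorted as haploid (1N), the DNA content of round spermatids, 46.5% (exact 95% interval 40.7% to 52.5%) held a globin UMI at a median depth of 234380 UMIs. After thinning every cell to 20000 UMIs, the expected share was 21.2%. One of the 3 haploid libraries, library 1 of PND30 R1, had 140.5 CPM of the 7 genes and 84.4% of its cells positive. For the cells sorted as diploid (2N), 21.2% held one (6.52% thinned) at 326110 UMIs, and for those sorted as 4N 43.1% (13.4% thinned) at 361840 UMIs. The share of positive cells over pools had a median of 71.9% and reached 100%, with a median of 36.2% after thinning. The 2 pools of PND35 had 4.04% and 2.37% after thinning. A share of cells with a globin UMI below those of the 1N cells is not read here as expression.

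The gate was not used in choosing the genes and could be tested. BVSC and Negative cells of E11.5 to E18.5 were compared in 16 wild-type pools with the pool as block (edgeR's quasi-likelihood test, Benjamini-Hochberg adjusted p). The markers fitted the gates, with 6 of 6 germ cell genes lower and 5 of 5 Sertoli and 5 of 5 interstitial genes higher in Negative cells. Of the 7 globins, 3 were higher in Negative cells, where 19.4% of all genes were higher, and 0 were lower, where 37.1% were lower. *Hbb-y* was higher by 3.00 on the log2 scale (SE 0.93, adjusted p = 0.0105), but by 1.66 without replicate 2 (SE 1.35, adjusted p = 0.346), *Hba-a1* by 1.90 (SE 0.47, adjusted p = 0.00188) and *Hba-a2* by 2.12 (SE 0.47, adjusted p = 0.000766). The median difference of all genes was -0.68 with TMM scaling and -0.19 with that of DESeq2, so differences are to be read against it. In a fit restricted to libraries that hold both gates 0 of 7 were called, where 38.5% of all genes were, and 0 had an unadjusted p under 0.05. In the pools from E13.5 R2 to E16.5 each gate had its own library, and gate and library cannot be told apart in them.

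The gate difference turned over with age. Splitting the fit by stage was decided after these values were seen, and the CPM of genes by stage are, as in the fit, over the cells past the filter. The reporter rule for BVSC cells changed at E14.5, within the first stage, and its part in the gate differences was not tested. In the 12 pools of E11.5 to E16.5, *Hba-a1* was 4.53 to 150 CPM in BVSC cells (median 24.7) and 22.3 to 838 CPM in Negative cells (median 159), higher in Negative cells in 12 of 12 pools. *Hba-a2*, *Hbb-bt* and *Hbb-bs* were higher in Negative cells in 12, 11 and 11 of 12 pools. The ranges of the gates overlapped over pools, and within a pool the order was nearly always the same. Of the 7 genes, 5 were called higher in Negative cells, against 19.3% of all genes: *Hba-a1* by 2.72 (SE 0.29, adjusted p = 9.62e-08), *Hba-a2* by 2.93, *Hbb-bt* by 2.65, *Hbb-bs* by 2.36 and *Hbb-y* by 3.43, all on the log2 scale and against a median of -0.47 for all genes. By the median cell instead of the sum, the 7 genes were higher in Negative cells in 10 of these 12 pools (0 to 428 CPM in BVSC and 9.70 to 2470 CPM in Negative cells) and not in E12.5 R1 and E13.5 R1. *Hba-x* (3.16, SE 1.34, adjusted p = 0.0585) and *Hbb-bh1* (2.21, SE 1.06, adjusted p = 0.0914) did not pass.

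In the 4 pools of E17.5 and E18.5 the order was the opposite. *Hbb-bt* was 65.7 to 138.9 CPM in BVSC cells (median 91.9) and 5.46 to 14.2 CPM in Negative cells (median 8.90). *Hbb-bs* was 43.7 to 144.3 CPM in BVSC cells (median 79.1) and 4.67 to 26.04 CPM in Negative cells (median 9.09). *Hba-x*, an embryonic gene, was 7.57 to 25.8 CPM in BVSC cells (median 14.9) and 0.519 to 2.44 CPM in Negative cells (median 1.66). For these genes the gates did not overlap, and BVSC cells were higher in 4 of 4 pools. Over all cells this held for *Hbb-bt* and *Hbb-bs*, whereas *Hba-x* in E18.5 R2 was then 15.02 CPM in Negative and 8.60 CPM in BVSC cells, with 31 of the 37 *Hba-x* UMIs of the Negative cells from 1 cell that did not pass the filter. The median cell showed the same order, with 179 to 359 CPM of the 7 genes in BVSC and 17.8 to 44.02 CPM in Negative cells. *Hbb-bt* (-2.77, SE 0.72, adjusted p = 0.00759) and *Hbb-bs* (-2.34, SE 0.70, adjusted p = 0.017) were called lower in Negative cells, 2 of 7 where 14.53% of all genes were. *Hba-a1* differed by -0.99 (SE 0.47, adjusted p = 0.112) and *Hba-x* by -2.70 (SE 1.59, adjusted p = 0.19), and the median of all genes was -1.30, so that the β genes lay below this median and *Hba-a1* did not. The late calls rest on 4 pools: without replicate 1, 0 of 7 were called lower (*Hbb-bt* -2.07, SE 0.91, adjusted p = 0.172, and *Hbb-bs* -1.19, SE 0.82, adjusted p = 0.367), and without replicate 2 the same 2 genes were.

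The change of the gate difference itself, late minus early, was called for 4 of 7 genes, where 3.33% of all genes were called lower. It was -3.71 (SE 0.57, adjusted p = 0.00179) for *Hba-a1*, -3.71 (SE 0.60, adjusted p = 0.00225) for *Hba-a2*, -5.42 (SE 0.88, adjusted p = 0.00225) for *Hbb-bt* and -4.70 (SE 0.83, adjusted p = 0.00349) for *Hbb-bs*, against a median of -0.40 over all genes. All 4 late pools held both gates in shared libraries. In a fit limited to such libraries (5 early and 4 late pools), 4 genes were called higher early (17.4% of all genes), 5 lower late (27.1%) and 5 lower in the difference (11.4%). With replicate 2 left out the difference was called for 1 of 7 genes, and with replicate 1 left out for 2. Fewer cells with globin and less globin RNA per cell were not separated by these sums.

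**Figure D4:**
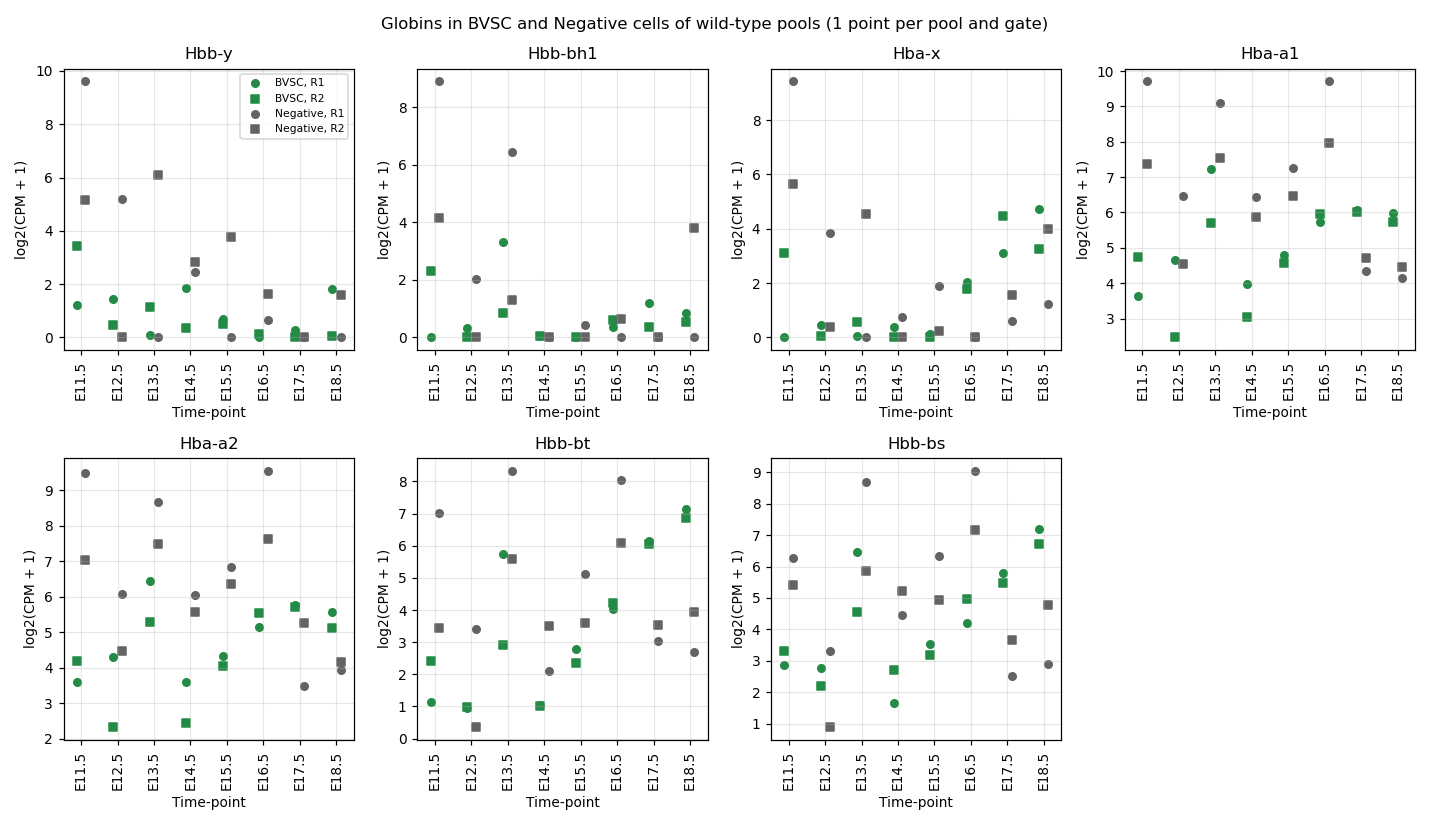
Level of each globin gene, as log2(CPM + 1), in BVSC (green) and Negative (grey) cells of the wild-type gonads, over all cells, with 1 point per pool and gate and the replicate given by the shape. For the 4 adult genes the Negative points lie mostly above the BVSC points to E16.5 and, at E17.5 and E18.5, below them.

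Other erythroid genes were counted in the same fits. At E11.5 to E16.5, of 38 tested erythroid genes other than globins 10 were higher and 2 lower in Negative cells, where 19.3% of all genes were higher and 28.1% lower, with a median over the list of 1.35 on the log2 scale, and among those higher was *Klf1* (1.82, SE 0.71, adjusted p = 0.039). *Hemgn* (1.91, adjusted p = 0.262) and *Car2* (1.80, adjusted p = 0.0593) did not pass. At E17.5 and E18.5, 2 were higher and 2 lower, where 13.4% of all genes were higher and 14.53% lower, with a median of -1.997 against -1.30 over all genes. *Fech*, which inserts iron into heme, was higher in Negative cells early (1.53, adjusted p = 0.000643) and late (2.86, adjusted p = 0.00112). Of the 7 regulators of globin switching, 4 were higher and 2 lower early, and 2 higher and 2 lower late. *Sox6* was higher in Negative cells early (2.95, adjusted p = 5.19e-06), and *Bcl11a* lower late (-3.04, adjusted p = 0.00652). *Lin28b*, a gene of fetal blood progenitors that germ cells express as well, was lower at both stages (-2.59 and -3.32, adjusted p = 0.00138 and 0.0184). Early, 0 of 11 leukocyte genes were higher and 2 lower in Negative cells, and late 0 were called. The part of blood cells in these differences was not tested.

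Late fetal germ cells also had another balance of α and β globins. The *Hbb-bt* and *Hbb-bs* share of the adult globin UMIs had a median of 31.4% over pools. In BVSC cells it was 50.8% and 48.9% in the E17.5 wild-type pools and 72.3% and 71.6% in those of E18.5, and in Negative cells 28.9% and 26.2%, then 27.8% and 51.6%. BVSC cells were higher in all 4 pools. At birth the pools had 71.1% and 51.3% (PND0) and 56.2% and 46.9% (PND1). In the E18.5 null pool it was 51.3% in BVSC and 37.2% in Negative cells.

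**Figure D5:**
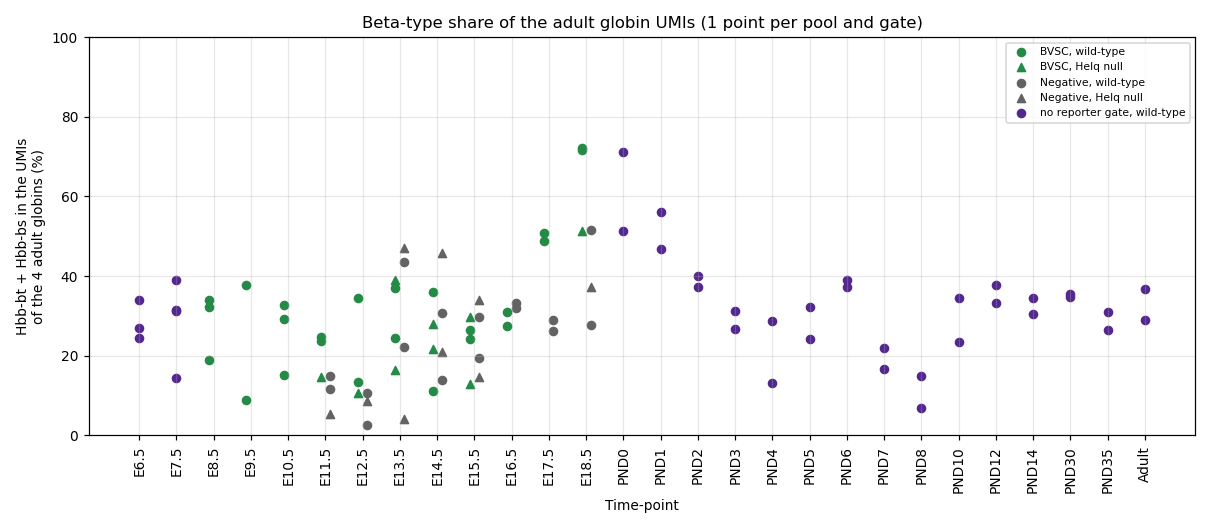
Share of *Hbb-bt* and *Hbb-bs* in the UMIs of the 4 adult globins, in percent, by time-point, with 1 point per pool and gate. BVSC cells of E18.5 wild-type pools and the PND0 R1 pool stand above 70%, and most other points lie between 10% and 40%.

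At E18.5 this balance was seen in most BVSC cells. Here UMIs of *Hbb-bt* and *Hbb-bs* were set against those of *Hba-a1* and *Hba-a2*, without the embryonic genes. In E18.5 R1, 59 of 72 BVSC cells (81.9%, exact 95% interval 71.1% to 90.02%) had more adult *Hbb* than adult *Hba* UMIs, and 5 of 24 Negative cells (20.8%, 7.13% to 42.2%). In E18.5 R2 these were 62 of 72 (86.1%) and 12 of 24 (50%). At E17.5 fewer BVSC cells had more adult *Hbb* than adult *Hba* UMIs, 29 of 72 (40.3%) in R1 and 31 of 72 (43.1%) in R2, beside 9 of 24 (37.5%) and 7 of 24 (29.2%) Negative cells. BVSC cells were deeper in all 4 late pools, with medians of 269570 to 382610 UMIs against 89004 to 143340 in Negative cells, so a cell of the BVSC gate had more chance to show a UMI of a rare gene. *Hba-x* was found in 38 of 72 and 27 of 72 BVSC cells of the E18.5 pools, in 16 of 72 and 42 of 72 of the E17.5 pools, and in 2 to 4 of 24 Negative cells of each. No globin-rich cell was among them.

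*Hba-x* thus parted from the other embryonic genes around birth. In the 15 pools of E16.5 to PND3, *Hba-x* exceeded both *Hbb-y* and *Hbb-bh1* in 15 of 15, with 1.90 to 33.9 CPM (median 5.39), against 0 to 2.23 CPM (median 0.295) for *Hbb-y* and 0 to 15.6 CPM (median 0.187) for *Hbb-bh1*. The ranges overlapped over pools. *Hba-x* was the highest of the 3 in 8 of the 33 pools of E6.5 to E15.5 and in 12 of the 22 later pools. In library 2 of E7.5 R3, in contrast, the 3 genes were each near the level of the adult α genes.

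The *Helq* genotype made no difference that was called. In BVSC cells of 6 time-points (edgeR's quasi-likelihood test with time-point as covariate), 0 of the 7 genes differed, where 0.705% of all genes did. DESeq2 called 0 of 7 as well, and 1 of 7 had an unadjusted p under 0.05 with either tool. This was *Hba-x*, with 2.62 on the log2 scale, null minus wild-type (SE 1.11, adjusted p = 0.395). Its levels in BVSC cells at E12.5 were 0.338 and 0.0390 CPM in the wild-type pools and 6.70 CPM in the null pool, and at E18.5 25.8 and 8.61 CPM in wild-type and 5.54 CPM in null, so the order was not the same at every time-point. *Hbb-bt* at E18.5 was 138.9 and 114.6 CPM in wild-type and 31.2 CPM in the null pool, which is a single pool. Of the other erythroid genes 0 of 36 were called.

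Along the gonad, the proximal (P) and distal (D) parts of E13.5 to E16.5 wild-type gonads did not differ in any call. There were 16 pairs, the BVSC and the Negative cells of each of 8 pools, so that pairs of one pool share its gonads, and the 7 genes together were higher in part P in 12 of them. Of the 7 genes 0 were called and 0 had an unadjusted p under 0.05, where 0% of all 19799 genes were called and 907 had an unadjusted p under 0.05. The replicates did not go the same way. Without replicate 1, *Hba-a1* was 1.06 on the log2 scale (P minus D), and without replicate 2 it was -0.39. With replicate 1 left out, 3 of 7 had an unadjusted p under 0.05 (456 of all 17851 genes) and 0 were called. The library was not part of these fits. DESeq2 called 0.

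The embryonic share was compared with exact permutation tests over pools. Between gates of 16 wild-type pools it was 5.27 percentage points higher in Negative cells (SD 14.7), in 7 of 16 pools (two-sided exact p = 0.176). Between genotypes the mean of the 6 time-point differences was 1.98 points, null minus wild-type (21 pools, two-sided exact p = 0.785). Null pools were higher at 1 of 6 time-points, E12.5, whose 1 null pool had 35.7%, and over pools the means were 9.64% in null and 10.84% in wild-type. Neither difference was larger than the spread over pools. These genotype values are over BVSC and Negative cells together. In BVSC cells alone the genotype difference was 6.36 points, null minus wild-type (two-sided exact p = 0.196). Null was then higher at 4 of 6 time-points, with means over pools of 9.43% in null and 5.54% in wild-type.

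Likeness of other genes to the globins was measured over the 70 pools. For the summed embryonic globins the Pearson r of log2(CPM + 1) was highest for *Cyp2b23* (0.585), *Rhox9* (0.551), *Itgb7* (0.540), *Rhox6* (0.531), *Lmx1b* (0.524), *Tlx3* (0.514), *Fut9* (0.501) and *Pnliprp1* (0.498). For the adult globins it was highest for *Ptk2b* (0.699), *Palld* (0.688), *Col5a3* (0.686), *Platr17* (0.676), *Slc25a12* (0.673), *Dppa4* (0.668), *Tnnt1* (0.667) and *Arntl* (0.664). No gene of the erythroid list was among these 16.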

How the data were processed

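Counts of UMIs per gene and cell were deposited by the authors without normalization. Per their methods and the labels, they extracted barcodes and UMIs with UMI-tools, mapped reads to mm10 with STAR and counted with featureCounts (Subread). Base calling named in the labels was CASAVA 1.8. All values were checked to be whole numbers of at least 0. GEO's labels name only libraries, so time-point, genotype, replicate, gate and part of each cell were taken from the deposited table of cells and the cell names. The same 96 barcodes served every library, no caller of doublets was run because cells were picked or sorted singly, and 32 BV cells entered no comparison.

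CPM, positive shares and embryonic shares were taken over all 13032 cells, except the CPM given beside the fits of gates by stage and of genotypes, which use the cells of those fits. Fits used sums over cells past the study's filter (more than 2000 genes, 10000 to 1000000 UMIs, 12692 cells), at least 10 cells a sum (5 for gonad parts). After filterByExpr and TMM scaling, sums were fitted and tested by quasi-likelihood in edgeR 4.0.16 (R 4.3.3), with p-values Benjamini-Hochberg adjusted over all genes tested, called under 0.05. DESeq2 1.42.0 was the other tool. Per the study's methods replicates were independent, and p-values measure the spread between pools. Gates and gonad parts were paired because both come from the same embryos or gonads. Embryonic shares were compared over pools with at least 50 globin UMIs (Python 3.11.15, scipy 1.17.1). Intervals are exact (Clopper-Pearson, 95%), and they and the limit of 3 counts for a count of 0 cover counting error only. Likeness was computed over genes with a mean of at least 1 CPM.

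The fits were tested on simulated data: of 100 genes changed by 2 on the log2 scale, 41 were recovered for gates, 58 for genotypes and 56 for gonad parts. Genes named are the 7 members, at most 6 a marker list and the 8 most alike of each class. *Alas2* and *Slc4a1* were named outside this rule, after their values were seen. Members, lists and tests were chosen with earlier results of these data known. Some genes of these lists are not reported here by name.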

Additional observations from a re-analysis of the deposited data

Results flagged for a closer look

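At E7.5, 7 values lay far from the other 3 pools of that time-point, and all came from R3. They were the levels of *Hbb-y* (379 CPM, next pool 0.194 CPM), *Hbb-bh1* (315 CPM, next 1.23 CPM), *Hba-x* (377 CPM, next 0.387 CPM), *Hba-a1* (393 CPM, next 12.9 CPM), *Hba-a2* (361 CPM, next 9.64 CPM) and *Hbb-bt* (101.8 CPM, next 3.73 CPM), and the embryonic share (54.9%, next 5.21%). *Hbb-bs* was not among them. Among libraries of one pool, library 2 of Adult R2 stood above the other 4 with 18.2 CPM of the 7 genes (next 9.09 CPM) and library 1 of PND30 R1 above the other 5 with 140.5 CPM (next 46.2 CPM). Such a value was found in 9 of the 18 sets of values examined, each over 4 to 10 pools or libraries. Of these 9, 7 are readings of the same pool, E7.5 R3, so the sets are not separate and 9 of 18 has no chance level beside it. The genes were also chosen with these levels known, so this describes the levels and is no test.

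The gate difference changed between E11.5 to E16.5 and E17.5 to E18.5 for 4 genes by a test of the change itself, with -3.71 for *Hba-a1*, -3.71 for *Hba-a2*, -5.42 for *Hbb-bt* and -4.70 for *Hbb-bs* on the log2 scale (edgeR's quasi-likelihood test, adjusted p = 0.00179, 0.00225, 0.00225 and 0.00349). The split by stage was chosen after the values were seen, and without replicate 1 or 2 the change was called for 2 genes or 1.

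The 32 BV cells of E11.5 wild-type R1, which entered no comparison, had 1761 CPM of the 7 genes, against 31.4 CPM in the BVSC cells of that pool. They share library 2 with 16 of the 32 Negative cells of the pool, and the part of the library was not tested.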

How the results depend on the processing

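Of the gate comparison, 3 of 7 genes called became 5 with DESeq2, 6 with no replicate block, 5 with *Helq* null pools added and 0 in libraries that hold both gates (chosen after seeing the data), where *Hbb-bt* (-0.37) and *Hbb-bs* (-0.75) reversed. Without a replicate number 2 to 3 were called, *Hbb-y* being lost without replicate 2. The change with stage was called for 4 genes with size factors of DESeq2 or library sizes alone in place of TMM and for 1 to 2 without a replicate number (*Hbb-y* from -9.72 to 2.16 and *Hbb-bh1* from -10.5 to 1.92, positive without replicate 1). Late calls lower in Negative cells were 3 and 4 of 7 with these scalings and 0 and 2 without replicates 1 and 2, and over all genes the late split was 3133 higher to 3388 lower with TMM, 2314 to 4971 with DESeq2's factors and 1877 to 6019 with library sizes alone, that of the change 1161 to 777, 567 to 866 and 311 to 1107.

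Between genotypes 0 genes became 1 with no filter on low counts (*Hba-x*, adjusted p = 0.044 with edgeR). Over all genes 152 calls became 534 with DESeq2, 378 with no filter and 19 and 68 without replicates 1 and 2. For E13.5, E14.5 and E15.5, the deviation of replicate 1 from the mean of its own genotype and time-point was taken for each gene. Over genes, these deviations (not the levels) correlated between null and wild-type at -0.126, -0.148 and -0.148. Pools of the same number thus did not deviate alike. The replicate block gave 0 of 7, as did a block with crossed numbers, the latter with 179 of all genes called, and *Hbb-bt* was -0.40 and -0.017 under them. In Negative cells *Hbb-y* reversed from 0.80 to -0.74, *Hba-x* from 2.62 to -0.39, *Hba-a1* from -0.097 to 0.71 and *Hbb-bs* from -0.34 to 0.80. With all cells *Hbb-bt* reversed from 0.023 to -0.015. Without a replicate number *Hbb-bh1* went from -0.47 to 0.10, *Hba-a2* from -0.23 to 0.23 and *Hbb-bt* from -1.80 to 0.37, reversed without replicate 1. Along the gonad the ranges were *Hba-a1* -0.39 to 1.06, *Hba-a2* -0.40 to 1.06, *Hbb-bt* -0.65 to 1.13 and *Hbb-bs* -0.39 to 0.85, below 0 without replicate 2, and with no filter 60 of all genes were called. Over gates, leaving out a replicate number cut the calls of all genes from 13173 to 7275 and 7249. The embryonic share of null minus wild-type pools reversed without either replicate number (-1.63 to -0.769 points). Globin-rich cells were 25 at 1% and 1 at 10%. The cause of these changes was not tested. Depth limits the embryonic genes most, since 1 UMI moves a pool's value from 0.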
